A study of Homo sapiens with 12 samples.

Results

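The genes described here are 10 members of neighbouring ligand and receptor families: the secreted guidance proteins SLIT2 and SLIT3 with the receptors ROBO1 and ROBO2, the secreted protein reelin (RELN) with the receptors VLDLR and LRP8, and LRP1, LRP5 and LRP6, larger receptors of the same lipoprotein receptor family as VLDLR and LRP8. They are 10 of the 60617 gene IDs in the count tables and were taken by name. SLIT3, RELN and LRP1 were picked from earlier results of these data, so their values are given as a description with no test. The other 7 were tested, except where counts were too few.

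RNA was sequenced from 769-P, an established human cell line from a clear cell renal carcinoma. The 4 groups held 3 libraries each, labelled siDRAIC (an siRNA, or small interfering RNA, named for the long non-coding RNA DRAIC), siDRAIC-NC, sihnRNPA2B1 (an siRNA named for the RNA-binding protein hnRNPA2B1) and sihnRNPA2B1-NC. Each NC group is taken as the control of the siRNA named with it; the labels give neither the meaning of NC, the siRNA sequences nor the time of harvest. All groups share 1 cell line. Whether the replicates came from separate cultures is not in the labels, and p-values then measure the spread between these libraries, which may be technical.

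Library totals ran from 30798303 to 42760528 counts. HNRNPA2B1 was 419.6 ± 21.0 CPM (the usual scaling of counts by the library total; mean ± SD, n = 3) in sihnRNPA2B1-NC and 290.6 ± 16.7 after its siRNA (log2 fold change -0.56, SE 0.05, edgeR adjusted p = 2.2e-09). DRAIC had 9 counts in the 3 siDRAIC libraries and 5 in their controls, 1.76 times as many (exact 95% interval 0.531 to 6.70). No knockdown could be detected at this depth, which is why that group is named by its label here. In each group 8 of 10 kidney tubule and clear cell carcinoma markers reached 1 CPM; the exceptions were CA9 and NDUFA4L2. None of 4 blood and immune, 3 endothelial or 2 hepatocyte markers did. In siDRAIC-NC, replicate 1 had the highest CPM of its group for 7 of the 9 genes with counts and replicate 2 the lowest for 7 of 9, so the spread of that group is wide for several of them.

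Slit proteins are secreted, and bind Robo receptors through which they steer growing axons and migrating cells. They also act in the branching of the ureteric bud and have been studied in tumours as signals that restrain migration. Reelin binds VLDLR and LRP8 (also called ApoER2), which pass the signal to the adaptor DAB1 and position neurons in the developing cortex. LRP1 is a scavenger receptor that takes up protease complexes, matrix proteins and lipoproteins, whereas LRP5 and LRP6 are the Frizzled co-receptors of canonical Wnt signalling.

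The Slit genes also carry the precursors of the microRNA miR-218, whose known targets include ROBO1. The hairpin MIR218-1 lies in an intron of SLIT2 (chr4:20528275-20528384, plus strand) and MIR218-2 in an intron of SLIT3 (chr5:168768146-168768255, minus strand), each on the strand of its host gene, in RefSeq on GRCh38.p14. Both give the same mature sequence, shown with its seed (bases 2 to 8) in capitals because it can be read against the Robo transcripts.
hsa-miR-218-5p: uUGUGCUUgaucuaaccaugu
The DNA match to that seed, AAGCACA, was searched in the 3′UTR of the GENCODE 29 transcript with the longest coding sequence of each gene. It was found once each in ROBO1, ROBO2 and RELN and in none of the other 7 members. The matches are shown in capitals, with flanking bases.
ROBO1: ttttttggttttaaAAGCACAatcactaaa
ROBO2: ttttatttggtgatAAGCACAaatctctac
RELN: gaaaaatgaaatttAAGCACAaaaaattta
The ROBO1 match starts at base 971 of a 3′UTR of 1672 bases, and 15.3% of 2420 3′UTRs of like length hold a match. For ROBO2 it starts at base 456 of 1061 (9.07% of 2260) and for RELN at base 301 of 1028 (8.85% of 2282). A match is a description of letters and not a shown target site. These libraries do not measure mature microRNAs, and the 2 hairpin genes had 0 to 3 counts in any library.

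The ligand SLIT3 (ENSG00000184347; chromosome 5, 168661733 to 169301129, minus strand, GRCh38) stood well above its controls in both experiments. SLIT3 measured 21.4, 14.5 and 14.5 CPM in siDRAIC-NC replicates 1 to 3 and 47.5, 59.7 and 45.2 in the libraries labelled siDRAIC. In the hnRNPA2B1 experiment SLIT3 was 12.8, 10.97 and 12.8 CPM in the controls and 27.0, 21.4 and 20.9 after the siRNA. The groups overlap in neither experiment, and the lowest siDRAIC library is more than 2-fold above the highest of its controls. The log2 fold change was 1.59 (SE 0.21), or 3.01-fold, in the libraries labelled siDRAIC and 0.89 (SE 0.10), or 1.85-fold, after hnRNPA2B1 siRNA. Antisense genes that overlap SLIT3 had at most 5 counts in any library.

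SLIT2 (ENSG00000145147; chromosome 4, 20253260 to 20620561, plus strand), the paralog that binds the same receptors, did not pass the test in either experiment. It had 10.1, 7.29 and 8.25 CPM in siDRAIC-NC and 11.97, 11.01 and 9.28 in the libraries labelled siDRAIC, which overlap. Its log2 fold change there was 0.31 (SE 0.22, edgeR adjusted p = 0.657). After hnRNPA2B1 siRNA it had 7.84, 8.94 and 8.47 CPM against 6.49, 7.52 and 7.01 in the controls. Those groups do not overlap, but the log2 fold change of 0.23 (SE 0.12) missed the threshold (edgeR adjusted p = 0.162).

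Of the receptors for these ligands, ROBO2 (ENSG00000185008; chromosome 3, 75906695 to 77649964, plus strand) had 0 counts in all 12 libraries. A count of 0 allows up to 3 counts, which is 0.0702 to 0.0974 CPM in these libraries; such floors cover counting error only. ROBO1 (ENSG00000169855; chromosome 3, 78597240 to 79767815, minus strand) was present and showed no called change. Its levels were 30.7, 13.2 and 18.9 CPM in siDRAIC-NC and 23.3, 23.7 and 24.9 in the libraries labelled siDRAIC, all within the range of the controls. In the hnRNPA2B1 experiment ROBO1 was at 4.74, 5.51 and 5.45 CPM in the controls and 4.99, 6.91 and 6.13 after the siRNA. The log2 fold changes were 0.19 (SE 0.25, edgeR adjusted p = 0.840) and 0.17 (SE 0.15, edgeR adjusted p = 0.421). The estimate for the siDRAIC label turned to -0.06 without siDRAIC-NC replicate 2.

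RELN (ENSG00000189056; chromosome 7, 103471784 to 103989516, minus strand) encodes a large secreted glycoprotein and was the ligand with the highest level per exon length. It measured 135, 62.7 and 90.8 CPM in siDRAIC-NC and 202, 217 and 209.8 in the libraries labelled siDRAIC. It measured 45.6, 45.3 and 43.2 CPM in sihnRNPA2B1-NC and 129, 115 and 103 after hnRNPA2B1 siRNA. In each experiment every siRNA library exceeds every control, although the 3 siDRAIC-NC libraries differ more than 2-fold among themselves. RELN was 2.18-fold higher in the libraries labelled siDRAIC (log2 fold change 1.12, SE 0.22) and 2.53-fold higher after hnRNPA2B1 siRNA (1.34, SE 0.07). Without siDRAIC-NC replicate 1 the first value was 1.39, and without replicate 2 it was 0.89.

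Neither reelin receptor was called higher in either experiment. VLDLR (ENSG00000147852; chromosome 9, 2621834 to 2660053, plus strand) had 34.2, 20.4 and 31.7 CPM in siDRAIC-NC and 26.9, 24.95 and 29.3 in the libraries labelled siDRAIC (log2 fold change -0.11, SE 0.21, edgeR adjusted p = 0.903). It had 62.4, 57.9 and 64.0 CPM in sihnRNPA2B1-NC and 64.6, 63.1 and 61.9 after the siRNA (0.01, SE 0.06, edgeR adjusted p = 0.940). Its groups overlap in both experiments.

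LRP8 (ENSG00000157193; chromosome 1, 53242364 to 53328070, minus strand), the other reelin receptor, was the single tested member called in an siRNA comparison. After hnRNPA2B1 siRNA it fell from 23.3, 21.4 and 24.7 CPM to 19.5, 20.04 and 17.4, with no overlap. The log2 fold change was -0.32 (SE 0.09), or 0.801 times the control level (edgeR adjusted p = 0.00533), and it was lower in 3 of 3 libraries than in any control. The call held with any 1 library of the experiment left out, with adjusted p of 0.00226 to 0.0429, and was lost with 1 estimate of spread over all 12 libraries (edgeR adjusted p = 0.453). Under the siDRAIC label LRP8 was at 54.5, 35.9 and 70.4 CPM against 78.4, 62.9 and 87.0 in siDRAIC-NC. Those groups overlap, and the log2 fold change of -0.54 (SE 0.22) did not pass (edgeR adjusted p = 0.397). Deviations of same-numbered libraries of that experiment from their group means were positively correlated, but the labels give no pairing. Each siDRAIC library lay below its same-numbered control, by 0.53, 0.81 and 0.31 on the log2 scale of CPM. With the replicate number as a block LRP8 passed (-0.57, SE 0.16, edgeR adjusted p = 0.00618). That fit called 3.58% of tested genes down. The antisense genes AL355483.2, AL355483.4 and AL606760.1 share exons with LRP8 on the opposite strand. Their counts are not given here, and their part in the LRP8 values was not tested.

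LRP1 (ENSG00000123384; chromosome 12, 57128493 to 57213351, plus strand), the endocytic receptor, had values that lay close to those of SLIT3. It measured 21.0, 15.9 and 17.0 CPM in siDRAIC-NC and 50.9, 67.7 and 44.8 in the libraries labelled siDRAIC. The hnRNPA2B1 experiment gave 11.75, 14.3 and 12.2 CPM in the controls and 19.8, 20.04 and 18.6 after the siRNA. Groups overlap in neither experiment, with a 3.01-fold higher level under the siDRAIC label (log2 fold change 1.59, SE 0.21) and a 1.49-fold higher one after hnRNPA2B1 siRNA (0.57, SE 0.10). LRP1 overlaps STAT6, a transcription factor gene on the opposite strand. The sources used here do not give whether counting used strand. STAT6 stood at 352 ± 26.8, 366 ± 27.8, 223 ± 6.13 and 214 ± 5.83 CPM in siDRAIC-NC, siDRAIC, sihnRNPA2B1-NC and sihnRNPA2B1.

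The Wnt co-receptors showed no called change. LRP5 (ENSG00000162337; chromosome 11, 68312609 to 68449275, plus strand) had 151, 159 and 166 CPM in siDRAIC-NC and 158, 173 and 139 in the libraries labelled siDRAIC (log2 fold change -0.04, SE 0.16, edgeR adjusted p = 0.962). It had 108, 112 and 107 CPM in sihnRNPA2B1-NC and 107, 104 and 101 after the siRNA (-0.10, SE 0.06, edgeR adjusted p = 0.182). LRP6 (ENSG00000070018; chromosome 12, 12116025 to 12267012, minus strand) varied more, with 23.6, 9.995 and 12.6 CPM in siDRAIC-NC and 22.4, 16.5 and 21.2 in the libraries labelled siDRAIC (0.37, SE 0.27, edgeR adjusted p = 0.665). That estimate was 0.76 without siDRAIC-NC replicate 1 (adjusted p = 0.0522) and 0.14 without replicate 2 (0.967). After hnRNPA2B1 siRNA LRP6 was at 25.5, 23.5 and 21.6 CPM against 21.5, 16.9 and 21.1 in the controls. These 2 groups do not overlap, by a narrow margin, and the log2 fold change of 0.22 (SE 0.09) missed the threshold (edgeR adjusted p = 0.0738). It passed without sihnRNPA2B1-NC replicate 3 (adjusted p = 0.0394) and without sihnRNPA2B1 replicate 3 (0.0491).

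**Figure D1:**
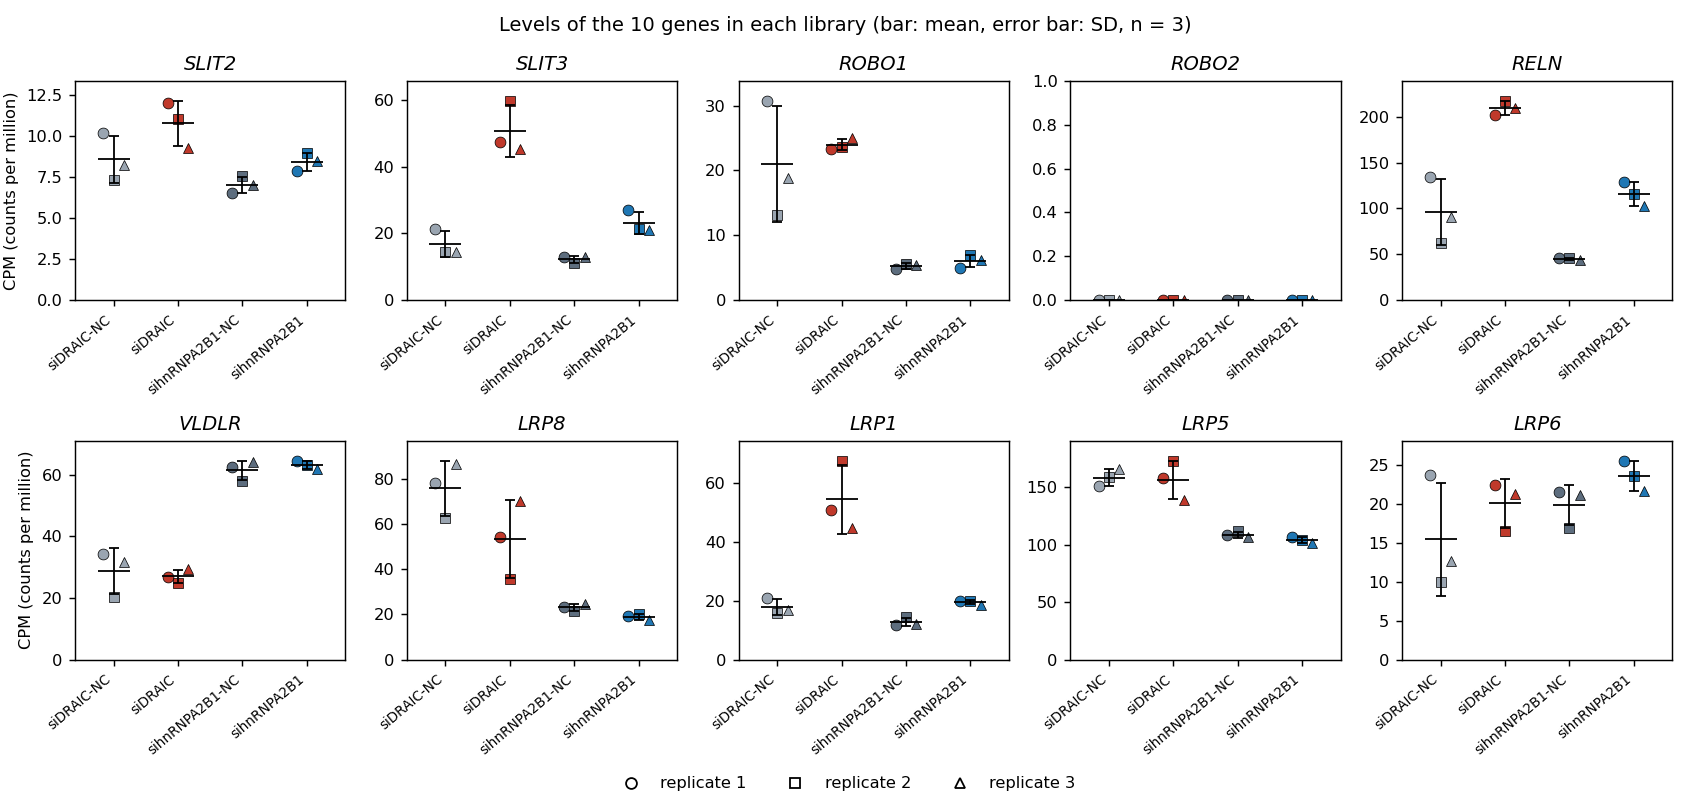
CPM of the 10 genes (y axis, linear from 0, a scale for each gene) in the 4 groups (x axis); symbols are the libraries by replicate number, the wide bar is the mean and the error bar the SD (n = 3). SLIT3, RELN and LRP1 lie above their own controls in both experiments, and ROBO2 is at 0 throughout. The libraries of VLDLR, ROBO1, LRP8 and LRP5 do not overlap between experiments.

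Counted over the 6 tested members not picked from results (ROBO2 had too few counts), edgeR called 0 in the libraries labelled siDRAIC, where it called 0.713% of all 15986 tested genes. Of the 6, LRP8 alone had an unadjusted p below 0.05. DESeq2 also called 0 of 6 (2.43% of all genes), and edgeR with the block 1 of 6 (8.78%). After hnRNPA2B1 siRNA edgeR called 1 of 6, LRP8, where it called 30.4% of 15710 genes (15.1% up and 15.4% down). With a 2-fold threshold it called 0 of 6, against 2.86%. Groups did not overlap for 0 of 6 in the first experiment, against 15.6% of all tested genes, and for 3 of 6 (SLIT2, LRP8 and LRP6) in the second, against 42.0%. The median log2 fold change of the 6 was 0.07 and 0.09, beside -0.005 and 0.008 over all genes tested. The shares are near the background, and nothing particular to these genes is read from them. In bulk RNA, a change in the share of cells with a transcript and a change in its level per cell cannot be told apart.

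**Figure D2:**
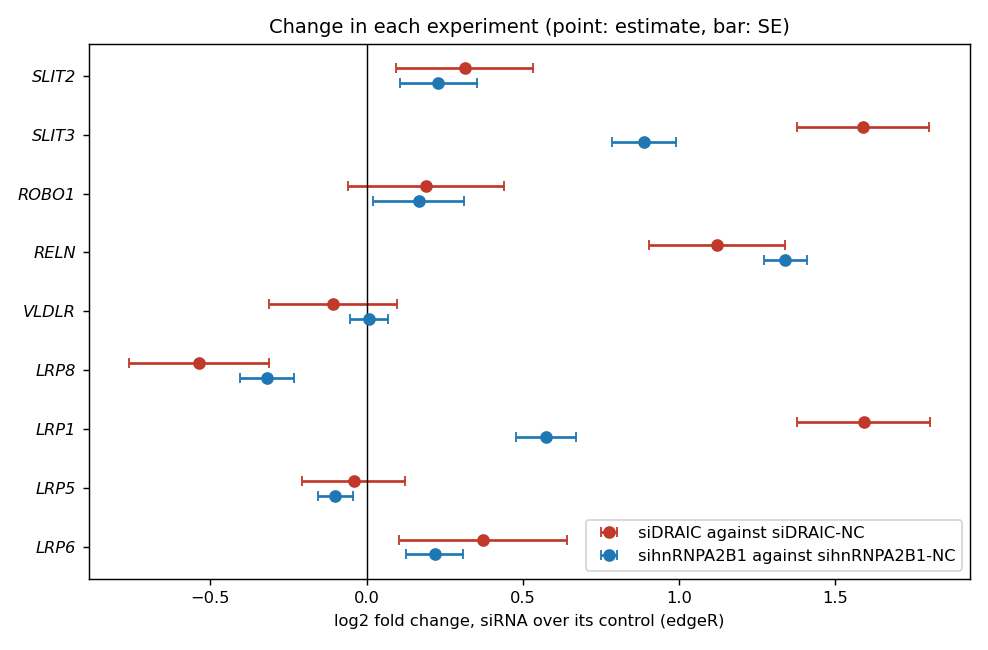
Log2 fold change of each siRNA group over its own control (x axis, edgeR; red, siDRAIC; blue, sihnRNPA2B1) for the 9 genes with counts (y axis), with bars of 1 SE. The estimates for SLIT3 (1.59 and 0.89), RELN (1.12 and 1.34) and LRP1 (1.59 and 0.57), the genes picked from results, lie to the right of 0, and LRP8 (-0.54 and -0.32) lies to the left.

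The changes in the 2 experiments were compared by testing their difference over all 12 libraries. For the 6 tested members none passed in edgeR, where 0.211% of 17091 genes did, or in DESeq2, where 1.30% did. The members had edgeR adjusted p of 0.849 to 0.999, and 0 of 6 had an unadjusted p below 0.05. Among the genes picked from results, given with no test, the change under the siDRAIC label minus that after hnRNPA2B1 siRNA was 0.66 (SE 0.22) for SLIT3, 0.98 (SE 0.22) for LRP1 and -0.25 (SE 0.24) for RELN. RELN's difference was about the size of its SE. With a library left out it ran from -0.454 to 0.006, the latter without siDRAIC-NC replicate 1.

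ROBO1, LRP8, LRP5 and VLDLR differed between the 2 control groups. ROBO1 averaged 20.9 ± 8.96 CPM in siDRAIC-NC and 5.23 ± 0.429 in sihnRNPA2B1-NC, a log2 difference of -1.98 (SE 0.22, edgeR adjusted p = 3.07e-06). LRP8 averaged 76.1 ± 12.2 and 23.1 ± 1.68 CPM (-1.73, SE 0.19, edgeR adjusted p = 3.44e-06), and LRP5 158.5 ± 7.42 and 109 ± 2.65 CPM (-0.56, SE 0.11, edgeR adjusted p = 0.000675). VLDLR went the other way, from 28.8 ± 7.36 to 61.4 ± 3.17 CPM (1.09, SE 0.14, edgeR adjusted p = 1.72e-05). The 2 reelin receptors thus exchange their order: LRP8 exceeded VLDLR in CPM per kilobase of exon in every library of the siDRAIC experiment, and VLDLR exceeded LRP8 in every library of the other.

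The antisense gene VLDLR-AS1, which overlaps VLDLR, differed in the same direction as VLDLR. It had 20, 30 and 15 counts in siDRAIC-NC and 295, 413 and 300 in sihnRNPA2B1-NC, and its part in the VLDLR difference was not tested. SLIT2 (-0.29, SE 0.15, edgeR adjusted p = 0.128) and LRP6 (0.38, SE 0.22, edgeR adjusted p = 0.162) did not pass between the control groups; LRP6 did without siDRAIC-NC replicate 1 (0.75, adjusted p = 0.00116). RELN stood at -1.09 (SE 0.17), LRP1 at -0.50 (SE 0.16) and SLIT3 at -0.46 (SE 0.16), with no test. In all, 4 of 6 tested members were called (1 higher and 3 lower in sihnRNPA2B1-NC), beside 51.6% of all 17091 genes, and 4 of 6 did not overlap, beside 57.8%. Experiment, handling and control cannot be told apart here.

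**Figure D3:**
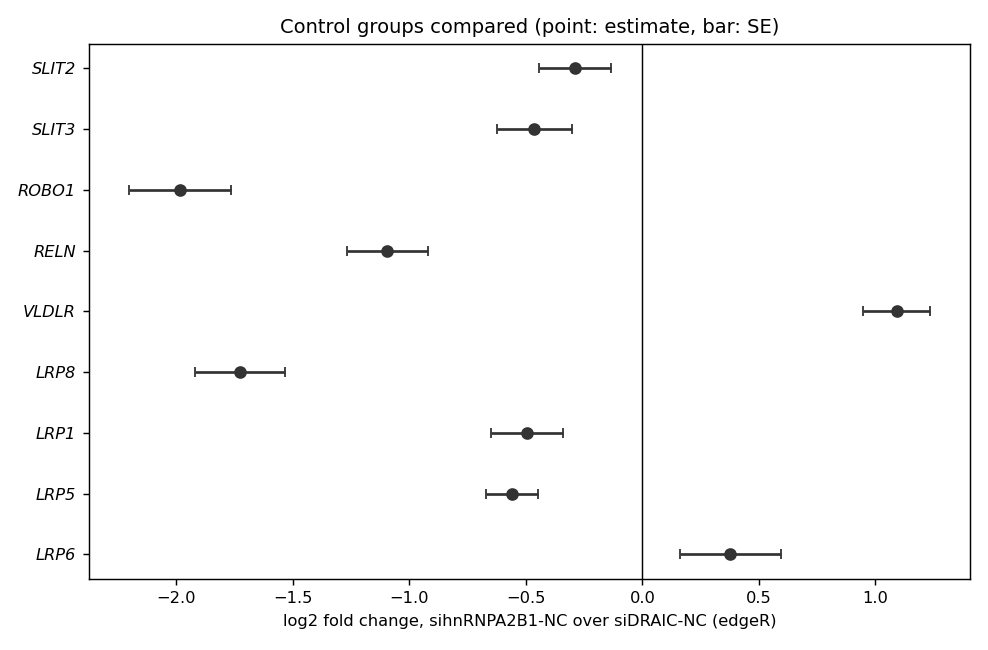
Log2 difference of sihnRNPA2B1-NC over siDRAIC-NC (x axis, edgeR) for the 9 genes with counts (y axis), with bars of 1 SE. ROBO1 (-1.98) and LRP8 (-1.73) lie far to the left and VLDLR (1.09) far to the right of 0.

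To set the genes against each other, levels were divided by exon length, as CPM per kilobase. LRP5 was highest in each of the 4 groups, at 25.7 ± 1.21 in siDRAIC-NC, 25.4 ± 2.75 in siDRAIC, 17.7 ± 0.43 in sihnRNPA2B1-NC and 16.9 ± 0.425 in sihnRNPA2B1. In siDRAIC-NC it was followed by RELN (7.59 ± 2.87) and LRP8 (7.41 ± 1.19), which did not differ beyond their SD. Then came VLDLR (3.08 ± 0.788), ROBO1 (1.92 ± 0.824), LRP6 (1.49 ± 0.700), SLIT3 (1.18 ± 0.281), SLIT2 (0.881 ± 0.149) and LRP1 (0.862 ± 0.129), with SD ranges that overlapped between neighbours. In the libraries labelled siDRAIC, RELN (16.6 ± 0.597) stood clear of LRP8 (5.22 ± 1.68). SLIT3 (3.56 ± 0.548), VLDLR (2.90 ± 0.232), LRP1 (2.62 ± 0.568), ROBO1 (2.20 ± 0.080) and LRP6 (1.94 ± 0.306) followed, again with overlapping neighbours, and SLIT2 (1.11 ± 0.140) lay apart at the foot.

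The order in sihnRNPA2B1-NC was LRP5, VLDLR (6.58 ± 0.339), RELN (3.54 ± 0.106), LRP8 (2.25 ± 0.164), LRP6 (1.92 ± 0.246) and SLIT3 (0.856 ± 0.0747). SLIT2 (0.721 ± 0.0528), LRP1 (0.612 ± 0.0660) and ROBO1 (0.481 ± 0.0394) closed it, and SD ranges overlapped for LRP8 with LRP6 and for SLIT2 with LRP1. After hnRNPA2B1 siRNA RELN (9.16 ± 1.05) lay above VLDLR (6.77 ± 0.148), the reverse of the controls. LRP6 (2.28 ± 0.191), LRP8 (1.85 ± 0.138), SLIT3 (1.62 ± 0.237), LRP1 (0.936 ± 0.0367), SLIT2 (0.867 ± 0.0570) and ROBO1 (0.553 ± 0.0887) followed, with overlap for LRP8 with SLIT3 and for LRP1 with SLIT2.

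Likeness to SLIT3, RELN and LRP1 was measured as the root mean square difference of centred log2 CPM over the 12 libraries, among 11723 genes at a mean of 2 CPM or more. The gene most like SLIT3 was LRP1 at 0.206, and the gene most like LRP1 was SLIT3, beside a root mean square of 0.759 and 0.771 for each gene about its own mean. After LRP1, the genes most like SLIT3 were F2R (0.268), the thrombin receptor, and ATP7B (0.269), a copper transporter, with RELN the fourth at 0.283. For RELN they were AKR1C3 (0.261), an aldo-keto reductase with near-identical relatives and so of uncertain count, F2R (0.270) and SERPINE2 (0.276), a protease inhibitor taken up through LRP1. For LRP1 they were, after SLIT3, PBXIP1 (0.255) and the metalloprotease ADAMTS7 (0.258). These figures describe libraries that share 4 groups. SLIT3, RELN and LRP1 had been picked from results, which may have favoured genes with similar changes.

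Because these 3 genes stood higher together, their RefSeq promoters (250 bases before to 50 after the start, GRCh38.p14, strand of the gene) are shown, with GC boxes (GGGCGG on either strand) in capitals. They lie at chr5:169301090-169301389 on the minus strand, chr12:57128233-57128532 on the plus strand and chr7:103989609-103989908 on the minus strand.
SLIT3: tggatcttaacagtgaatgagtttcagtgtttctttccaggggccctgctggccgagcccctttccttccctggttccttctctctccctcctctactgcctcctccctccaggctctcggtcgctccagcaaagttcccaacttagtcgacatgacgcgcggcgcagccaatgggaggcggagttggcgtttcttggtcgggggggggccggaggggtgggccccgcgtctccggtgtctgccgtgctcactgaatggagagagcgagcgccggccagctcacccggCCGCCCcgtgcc
LRP1: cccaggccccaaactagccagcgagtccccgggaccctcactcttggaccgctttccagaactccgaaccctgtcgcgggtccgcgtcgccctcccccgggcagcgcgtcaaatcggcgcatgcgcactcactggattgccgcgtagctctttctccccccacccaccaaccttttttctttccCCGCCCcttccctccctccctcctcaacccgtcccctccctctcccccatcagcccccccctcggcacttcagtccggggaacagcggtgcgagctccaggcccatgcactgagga
RELN: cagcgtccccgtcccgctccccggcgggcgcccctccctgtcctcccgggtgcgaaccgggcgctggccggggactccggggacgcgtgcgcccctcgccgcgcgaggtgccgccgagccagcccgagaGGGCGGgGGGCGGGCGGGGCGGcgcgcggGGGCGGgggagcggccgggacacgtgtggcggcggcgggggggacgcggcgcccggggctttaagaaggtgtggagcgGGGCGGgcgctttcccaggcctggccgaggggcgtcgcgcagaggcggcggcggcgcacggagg
SLIT3 and LRP1 hold 1 GC box each and RELN 6, some overlapping, while 45.0% of 35116 RefSeq promoters of this length hold at least 1. CpG dinucleotides number 22, 23 and 52 and GC content is 64.7%, 67.0% and 83.3%, against medians of 14 and 58.7% over all promoters. Among the other members LRP5 holds 52 CpG at 86.7% GC, VLDLR 49 at 79%, LRP8 41 at 78.3% and SLIT2 36 at 74.3%. LRP8 and SLIT2 hold 5 GC boxes each. The ROBO1 promoters hold 11 and 15 CpG (45.3% and 56.7% GC) and those of ROBO2 7 and 31 (46.7% and 72.3%). High CpG and GC are thus not particular to the 3 genes. None of the 3 holds TATAAA (11.5% of promoters do), SLIT3 holds 1 CCAAT (34.6%) and RELN 1 CACGTG (7.26%), both searched on either strand. No binding or methylation was measured, and the letters say nothing about use.

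Markers of other cell types were set beside these genes. Of 4 fibroblast and smooth muscle markers, 3 reached 1 CPM in siDRAIC-NC and siDRAIC and 2 in the other groups, and DCN was at 0 in sihnRNPA2B1-NC. Their summed CPM ran from 19.7 to 26.8 in siDRAIC-NC and from 30.7 to 42.4 in siDRAIC. In the other experiment it ran from 13.1 to 16.5 in the controls and from 14.8 to 15.5 after the siRNA. The sum was thus higher along with SLIT3, RELN and LRP1 in the libraries labelled siDRAIC, and within the range of its controls after hnRNPA2B1 siRNA. Over all libraries ACTA2 had the largest part of it, with a mean of 16.7 CPM beside 4.47 for COL1A1, 1.72 for PDGFRB and 0.0142 for DCN. Neuronal markers (TUBB3, SYP, RBFOX3 and NEFL) summed to 53.6 to 67.8 CPM in siDRAIC-NC and 33.0 to 35.9 in siDRAIC, with 3 and 2 of 4 at 1 CPM. In the other experiment the sums were 38.7 to 41.9 and 35.1 to 40.6 CPM, with 1 of 4. These sums are almost all NEFL and do not describe the neuronal markers as a set. NEFL averaged 39.99 CPM over all libraries, beside 1.75 for TUBB3, 0.563 for RBFOX3 and 0.443 for SYP. The part of either marker list in the results was not tested.

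In the Slit-Robo pathway (25 further genes: other Slit and Robo genes, the srGAP proteins, small GTPases and cytoskeletal effectors), 0 of 20 tested genes were called in the libraries labelled siDRAIC by edgeR or by DESeq2, with 2 at an unadjusted p below 0.05 and 2 up with the block. Over all tested genes edgeR called 0.713% there, DESeq2 2.43% and edgeR with the block 8.78%. The median log2 fold change of the list was 0.05. After hnRNPA2B1 siRNA 10 of 22 were called, 4 up and 6 down, with a median of 0.01, where 30.4% of all tested genes were called (15.1% up and 15.4% down). Over the 4 lists described from here on, 39 genes were called after hnRNPA2B1 siRNA and 1 with 1 estimate of spread over all 12 libraries. In the latter fit SOS1 (adjusted p = 0.495), PAK1 (0.173), VASP (0.369) and ABL1 (0.369) did not pass. SOS1, a Ras and Rac exchange factor that Robo recruits, rose from 42.1 ± 1.07 to 56.4 ± 2.23 CPM (log2 fold change 0.39, SE 0.06, edgeR adjusted p = 3.33e-05), and PAK1, a kinase downstream of Rac, rose from 30.97 ± 2.32 to 39.3 ± 0.369 CPM (0.31). VASP, an actin regulator, fell by 0.27 and ABL1, the kinase that phosphorylates Robo, also fell by 0.27. The genes of the list highest in CPM, which is not corrected for length, were RAC1 and RHOA, and RHOA fell by 0.20 after hnRNPA2B1 siRNA while RAC1 was at 448 ± 7.38 and 459.5 ± 5.58 CPM.

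The reelin pathway list (24 genes) holds the adaptors, kinases and proteases around the receptors. DAB1, singled out after its values were seen, had 1 count in all 12 libraries, whereas its relative DAB2, chosen likewise, was at 36.3 ± 1.24 to 81.9 ± 9.29 CPM across groups. In the libraries labelled siDRAIC 1 of 22 tested genes was called, beside 0.713% of all tested genes. THBS1, a matrix glycoprotein that can bind VLDLR and LRP8, rose from 290 ± 45.0 to 716 ± 155 CPM (log2 fold change 1.29, SE 0.19, edgeR adjusted p = 0.0107). THBS1 no longer passed without siDRAIC-NC replicate 2 (adjusted p = 0.0610) or 3 (0.0952) and without siDRAIC replicate 3 (0.0574). With the block 1 rose (THBS1) and 1 fell, the secreted chaperone CLU (-0.72, edgeR adjusted p = 6.94e-05), named after its values were seen. Over all tested genes the block called 8.78%. The list median was 0.05. After hnRNPA2B1 siRNA 4 rose and 4 fell of 22, beside 30.4% called over all genes, with a median of 0.02. The integrin chain ITGB1 rose (0.30) and its partner ITGA3 fell (-0.20); these were the genes of the list highest in CPM. The exchange factor RAPGEF1 (-0.31) and the protease FURIN (-0.28) fell as well. RAPGEF1 acts downstream of DAB1 in reelin signalling. None of these 4 passed with 1 estimate of spread over all 12 libraries (edgeR adjusted p of 0.303 to 0.455).

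Of 24 other genes of the lipoprotein receptor family and its partners, 21 were tested in the libraries labelled siDRAIC. There edgeR called 0 of 21, beside 0.713% of all tested genes. DESeq2 called 3 (2.43% of all genes), and the block 5 up and 2 down (8.78% in either direction). Of the 21, 6 had an unadjusted p below 0.05, and the median was -0.01. After hnRNPA2B1 siRNA 5 rose and 7 fell of 20, beside 30.4% called over all genes, with a median of 0.07. GULP1, an adaptor that binds the tail of LRP1, rose from 50.4 ± 3.25 to 84.1 ± 3.03 CPM (log2 fold change 0.71, SE 0.06, edgeR adjusted p = 7.53e-10). PLAUR, the urokinase receptor, which LRP1 helps clear, fell from 54.1 ± 0.278 to 30.9 ± 4.20 CPM (-0.84, SE 0.08, edgeR adjusted p = 2.7e-09). LRP4, the agrin receptor, fell from 20.02 ± 1.99 to 14.2 ± 0.699 CPM (-0.53). With 1 estimate of spread over all 12 libraries GULP1 (adjusted p = 0.100), PLAUR (0.0873) and LRP4 (0.0560) did not pass. HSP90B1, a chaperone among the genes of the list highest in CPM, was not called in either experiment.

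The Wnt list held 40 genes, from ligands and Frizzled receptors to the destruction complex. In the libraries labelled siDRAIC edgeR called 1 of 34 tested, beside 0.713% of all tested genes, with a list median of -0.07. DESeq2 called 3 (2.43% of all genes), and the block 4 up and 3 down (8.78% in either direction). The ligand WNT9A rose from 9.83 ± 0.631 to 24.1 ± 0.497 CPM (log2 fold change 1.27, SE 0.19, edgeR adjusted p = 0.0121). WNT9A no longer passed without siDRAIC-NC replicates 2 (adjusted p = 0.0930) or 3 (0.0751) and without siDRAIC replicates 2 (0.0578) or 3 (0.0574). After hnRNPA2B1 siRNA 6 rose and 3 fell of 32, beside 30.4% called over all genes, with a median of 0.04. DKK3, a secreted member of the Dickkopf family, rose from 157 ± 6.60 to 219 ± 6.47 CPM (0.45, SE 0.05, edgeR adjusted p = 3.08e-07). The scaffold protein DVL3 (0.21) and the kinase CSNK1G1 (0.20), which phosphorylates LRP6, rose, and DVL1 fell (-0.23). CSNK1G1 no longer passed without sihnRNPA2B1-NC replicate 1 (adjusted p = 0.0852) or without sihnRNPA2B1 replicates 1 (0.0665) or 2 (0.0714). With 1 estimate of spread over all 12 libraries DKK3 (adjusted p = 0.0533), DVL3 (0.335), CSNK1G1 (0.549) and DVL1 (0.528) did not pass. CTNNB1, which encodes beta-catenin, was not called, at 205 ± 6.47 and 217 ± 0.898 CPM. AXIN2, a common Wnt target singled out after its values were seen, was at 0.452 ± 0.217 CPM or less in every group.

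**Figure D4:**
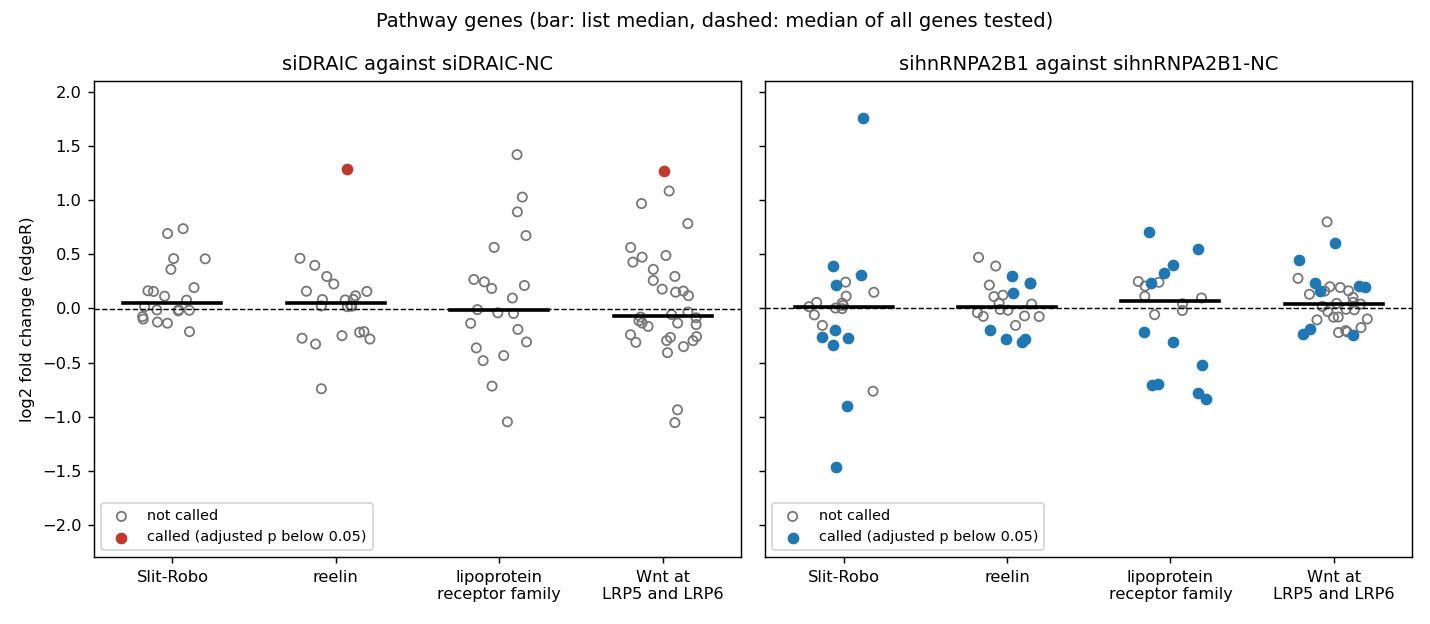
Log2 fold changes (y axis, edgeR) of the tested genes of the 4 pathway lists (x axis) in the libraries labelled siDRAIC (left) and after hnRNPA2B1 siRNA (right); filled points are called, bars are list medians and the dashed line is the median of all genes tested. On the left THBS1 (1.29) and WNT9A (1.27) are the called genes, and on the right called genes lie on both sides of 0 in each list.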

How the data were processed

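The deposited values were raw read counts per Ensembl gene, whole numbers, in 1 table for each siRNA experiment. Per the submitters' processing notes the authors used hg38, fastp 0.23.2, STAR 2.7.10a, StringTie and DESeq2; the sources used here give no counting program, annotation or strand setting. Overlapping or near-identical genes may thus share or lose reads. Symbols were paired with 60261 of 60617 IDs, and coordinates come from GENCODE 29 (GRCh38). There were 0 lines naming no gene. Libraries of a group differed by more than sampling noise (chi-square over degrees of freedom between 4.94 and 139.8).

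The 6 libraries of an experiment were fitted with edgeR 4.0.16 (R 4.3.3): filterByExpr at a minimum count of 10, TMM factors, the robust quasi-likelihood test, two-sided, and Benjamini-Hochberg adjustment over all genes tested. Called means an adjusted p below 0.05. The difference and the control groups were tested in 1 fit of 12 libraries and 4 group means. SE was computed as the size of the log2 fold change divided by the root of F. The fit was tested on simulated data. The members and lists were chosen with earlier results of these data known. Named genes are the members, up to 4 called genes of smallest p per list and siRNA, the 2 highest in CPM per list, and the 3 most like SLIT3, RELN and LRP1 (prior count 2); some of these enter the counts without being named here.

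Alternatives were RLE factors, DESeq2 1.42.0, limma-voom (limma 3.58.1), no filter, 1 CPM in 3 libraries, a replicate block, 1 fit of 12 libraries, a 2-fold threshold and leaving out each library. Deviations from group means correlated at 0.489, 0.227 and 0.277 between same-numbered libraries of the siDRAIC experiment (other pairs -0.409 to 0.103), so the numbers were taken, from the data and not the labels, to pair those samples. Centring on the mean of 3 libraries ties these values, since positive same-numbered ones push the others negative. The block was fitted to the same libraries, so its calls depend on a pairing that was inferred and not given.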

Additional observations from a re-analysis of the deposited data

Results flagged for a closer look

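2 genes of the pathway lists changed differently in the 2 experiments by edgeR's test of the difference over all 12 libraries. WNT9A rose by 1.27 in the libraries labelled siDRAIC and had an estimate of -0.21 after hnRNPA2B1 siRNA (17.2 ± 2.17 against 19.3 ± 2.05 CPM). The difference was 1.44 (SE 0.20, edgeR adjusted p = 0.00733), and it passed under all 18 alternatives run, with adjusted p from 2.42e-08 to 0.0461. WNT9A also differed between the control groups, at 9.83 CPM in siDRAIC-NC and 19.3 in sihnRNPA2B1-NC (log2 difference 0.96, edgeR adjusted p = 4.49e-05). The part of that starting difference was not tested. THBS1 was not called between the control groups (-0.23, edgeR adjusted p = 0.185). THBS1 rose by 1.29 and had an estimate of -0.01 (252 ± 14.7 against 248 ± 7.44 CPM), a difference of 1.26 (SE 0.20, edgeR adjusted p = 0.0212). THBS1 no longer passed without siDRAIC-NC replicate 3 (adjusted p = 0.0517) and without each of the 6 libraries of the hnRNPA2B1 experiment in turn (0.0559 to 0.105).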

How the results depend on the processing

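Of 765 alternative values for 56 gene results, 701 were unchanged, 33 lost a call, 4 gained one, 3 moved by more than the replicate SD and 24 changed sign. Unchanged meant the same direction and side of the threshold for tested genes. For SLIT3, RELN and LRP1, which had no test, it meant the same direction and a move of less than the replicate SD. Members called in the libraries labelled siDRAIC went from 0 to 1 (LRP8) with the replicate block and were 0 with each library left out. After hnRNPA2B1 siRNA they went from 1 to 0 with 1 fit of 12 libraries or a 2-fold threshold, and were 1 to 2 with a library left out; same-numbered libraries there correlated at -0.0117, -0.0242 and -0.0456, and the block gave 1. Called list genes under the siDRAIC label numbered 2, against 7 with DESeq2, 10 without a filter, 18 with the block, 10 with 1 fit of 12 libraries and 0 to 13 with a library left out (13 without siDRAIC-NC replicate 1). After hnRNPA2B1 siRNA they numbered 39, against 1 with 1 fit of 12 libraries. For the difference they numbered 2, against 4 with DESeq2, 5 without a filter and 1 to 5 with a library left out.

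No sign change touched a called estimate. With a library left out, ROBO1 under the siDRAIC label ran from -0.0596 (without siDRAIC-NC replicate 2) to 0.516 (without siDRAIC-NC replicate 1), LRP5 from -0.156 to 0.0462 (without siDRAIC replicate 3), and VLDLR after hnRNPA2B1 siRNA from -0.024 (without sihnRNPA2B1-NC replicate 2) to 0.0274. The ROBO1 difference (-0.003) was 0.009 with RLE factors, 0.009 with DESeq2, 0.0691 with limma-voom, 0.003 without a filter, 0.0322 with the 1 CPM filter and 0.0616 with the replicate block. With a library left out the differences ran from -0.224 to 0.309 for ROBO1, -0.0208 to 0.148 for SLIT2, -0.454 to 0.006 for RELN, -0.0609 to 0.101 for LRP5 and -0.0735 to 0.503 for LRP6. The cause was not tested. No other member's call changed with the block. The 3 libraries per group and their spread limit precision, with SEs of the tested members of 0.16 to 0.27 under the siDRAIC label and 0.06 to 0.15 after hnRNPA2B1 siRNA.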
